A study of Mus musculus with 1016 samples.

Results

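Olfactory receptor genes form the largest gene family of the mouse genome and lie in clusters on many chromosomes, and 3 of these clusters were followed through preimplantation development here, by position alone: chr2:85400001-90300000, chr7:102400001-108900000 and chr9:37700001-40200000 (GRCm38). The clusters covered 278 of the 49264 50 kb bins for which single-cell Repli-seq states were given: 98 bins on chromosome 2, 130 on chromosome 7 and 50 on chromosome 9. Single-cell Repli-seq reads the amount of DNA along the genome of a cell in S phase, and each bin of each cell was given a state of replicated or not replicated. At least 1 call was made in 268 of these bins; the other 10, all on chromosome 7, held no call in any group.

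The cells came from 14 groups, and each group was set beside the others by 1 measure. The 7 stages were zygotes (66 cells, collected 20 to 26 h after hCG), 2-cell embryos (63 cells, 32 to 40 h), 4-cell embryos (55 cells, 50 to 56 h), 8-cell embryos (56 cells, 66 to 72 h), 16-cell embryos (40 cells, 77 to 80 h), morulae (47 cells, 90 to 96 h) and the inner cell mass of the blastocyst (ICM; 70 cells, 96 to 104 h), all untreated and of the cross (C57BL/6J x CBA) x DBA/2J. Zygotes made by in vitro fertilisation (IVF zygotes, 57 cells, from 5.5 h after insemination) were of that cross too, whereas parthenotes (57 cells, 5.5 to 12 h after activation with Sr2+) came from unfertilised (C57BL/6J x CBA)F1 oocytes and have no paternal genome. Pronuclei had been separated by micromanipulation 21 to 25 h after hCG, the 21 maternal ones being of genotype (C57BL/6J x CBA)F1 and the 17 paternal ones DBA/2J, so that parent of origin and strain cannot be told apart. The 3 treated groups were 2-cell embryos of the natural cross: 42 cells kept in 0.1 mg/mL alpha-amanitin from 17 h after hCG, 67 cells kept in 100 µM DRB from 17 h, both inhibitors of transcription by RNA polymerase II, and 56 cells from embryos injected with mRNA of the histone H3 lysine 4 demethylase KDM5B at 18 h. The treated cells were collected 34 to 39 h after hCG with alpha-amanitin and 34 to 40 h after hCG with DRB or KDM5B mRNA. All 714 cells had a replication score, the percentage of the genome replicated in that cell, of 10 to 90.

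Each labelled sample is 1 cell, and no label names a litter, an embryo or a collection. A group is therefore 1 sample, no test between groups could be made, and the intervals given are exact binomial (Clopper-Pearson) 95% intervals at the number of cells, which cover counting error only. Values are shares: the percentage of a group's cells in which a bin was replicated, averaged over the bins of a region. Because groups were caught at different points of S phase, with a share of 40.8% over chromosomes 1 to 19 in 4-cell embryos and 61.1% in IVF zygotes, the relative share is used below, which is the share of the region minus the share over chromosomes 1 to 19 in the same cells, in percentage points. A negative relative share means that the region replicated later than the genome did on average. It cannot fall below minus the genome share, which leaves less room for low values in groups with a low genome share. For single genes, the relative share is the mean over the bins that the gene overlaps.

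Olfactory receptors are odorant-binding receptors coupled to G proteins, and each olfactory neuron is known to express a single receptor gene from a single allele. Outside the nose most of these genes are silent, and in most cell types studied their clusters lie in AT-rich heterochromatin that replicates late in S phase. Class I receptors, related to those of fish, form a cluster of their own on chromosome 7, and class II receptors, which prevail in land animals, fill the clusters of chromosomes 2 and 9. The annotation placed 281 olfactory receptor genes and pseudogenes in the chromosome 2 range (224 of them protein-coding), 236 in the chromosome 7 range (197 protein-coding) and 123 in the chromosome 9 range (95 protein-coding). Of the 197 on chromosome 7, the receptor family names in RefSeq put 127 in class I and 68 in class II, and 2 carried no family name.

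The ranges differed in how purely they held receptors. On chromosome 9 each of the 50 bins overlapped a receptor gene or pseudogene, and on chromosome 2, 96 of 98 did. On chromosome 7, 82 of 130 bins did, 34 held only other protein-coding genes and 14 held neither, since the range also contains the beta-globin genes and 58 protein-coding genes outside the receptor family, against 6 on chromosome 2 and 4 on chromosome 9. The GC content was 37.0% on chromosome 2, 40.1% on chromosome 7 and 37.7% on chromosome 9, beside 41.9% over all bins and 44.1%, 45.04% and 44.5% in the 1 Mb borders to either side. Masked repeats took 47.6%, 43.5% and 44.2% of the 3 ranges, beside 33.5% over all bins and 33.1%, 27.8% and 26.5% in the borders. The clusters were therefore poorer in GC and richer in repeats than the DNA next to them.

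The promoters show the same contrast in their letters. Below are the promoters, from 250 bases before to 50 after the start, of the latest-replicating receptor of each cluster (Olfr1066, Olfr605 and Olfr944), of Pramel7 and Cckbr, which lie in 2 of the 3 intervals with other genes that are described below, of Ilk, the kinase that links integrins to actin and a neighbour of Cckbr, and of Stim1, the calcium sensor of the endoplasmic reticulum, which begins in the left border of the chromosome 7 cluster. They are RefSeq sequences (GRCm38.p6), 5′ to 3′ on the gene's own strand, with each CG dinucleotide in capitals. CG reads the same on both strands.
Olfr1066: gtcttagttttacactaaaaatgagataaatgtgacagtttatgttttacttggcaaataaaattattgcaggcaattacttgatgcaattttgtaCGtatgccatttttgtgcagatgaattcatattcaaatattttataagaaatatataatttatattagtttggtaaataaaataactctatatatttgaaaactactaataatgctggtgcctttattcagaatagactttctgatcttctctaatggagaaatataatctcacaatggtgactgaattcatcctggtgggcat
Olfr605: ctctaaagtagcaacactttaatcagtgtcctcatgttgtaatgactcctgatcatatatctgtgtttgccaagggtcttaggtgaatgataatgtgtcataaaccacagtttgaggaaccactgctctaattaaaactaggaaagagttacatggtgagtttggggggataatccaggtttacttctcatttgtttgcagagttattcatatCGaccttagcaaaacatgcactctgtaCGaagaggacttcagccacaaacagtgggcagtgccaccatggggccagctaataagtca
Olfr944: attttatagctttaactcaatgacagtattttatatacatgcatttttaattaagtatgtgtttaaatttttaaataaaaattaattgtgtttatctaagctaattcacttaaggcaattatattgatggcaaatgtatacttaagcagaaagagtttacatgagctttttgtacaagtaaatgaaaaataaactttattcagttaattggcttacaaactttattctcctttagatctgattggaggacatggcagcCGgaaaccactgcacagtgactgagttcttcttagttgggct
Pramel7: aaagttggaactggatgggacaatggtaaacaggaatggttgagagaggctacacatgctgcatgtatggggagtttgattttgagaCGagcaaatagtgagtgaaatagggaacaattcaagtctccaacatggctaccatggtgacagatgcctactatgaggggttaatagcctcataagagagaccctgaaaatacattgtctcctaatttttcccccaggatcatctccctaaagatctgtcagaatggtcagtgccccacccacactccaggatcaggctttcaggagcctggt
Cckbr: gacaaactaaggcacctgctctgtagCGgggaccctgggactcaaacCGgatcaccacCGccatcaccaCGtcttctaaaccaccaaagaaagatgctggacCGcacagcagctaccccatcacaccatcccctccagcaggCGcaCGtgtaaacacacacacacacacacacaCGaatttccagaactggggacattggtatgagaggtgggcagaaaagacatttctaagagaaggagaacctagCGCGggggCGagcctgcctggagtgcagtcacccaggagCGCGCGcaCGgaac
Ilk: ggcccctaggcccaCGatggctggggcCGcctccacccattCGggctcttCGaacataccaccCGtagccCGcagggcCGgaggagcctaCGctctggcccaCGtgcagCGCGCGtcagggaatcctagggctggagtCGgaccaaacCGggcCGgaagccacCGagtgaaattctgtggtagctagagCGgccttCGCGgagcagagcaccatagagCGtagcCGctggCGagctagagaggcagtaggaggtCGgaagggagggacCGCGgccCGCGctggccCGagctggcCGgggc
Stim1: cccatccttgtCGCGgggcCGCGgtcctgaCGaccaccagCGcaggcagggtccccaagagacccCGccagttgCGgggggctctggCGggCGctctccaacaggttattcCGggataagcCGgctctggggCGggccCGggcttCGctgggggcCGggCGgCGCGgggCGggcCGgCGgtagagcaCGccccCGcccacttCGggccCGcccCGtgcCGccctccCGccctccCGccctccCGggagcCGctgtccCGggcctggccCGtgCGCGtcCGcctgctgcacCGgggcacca

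Olfr1066, at chr2:86456220-86456519 on the minus strand, held 1 CG, Olfr605, at chr7:103443101-103443400 on the minus strand, held 2, and Olfr944, at chr9:39217109-39217408 on the plus strand, held 1. Pramel7, at chr2:87492369-87492668 on the minus strand, held 1 as well. By contrast Cckbr, at chr7:105425481-105425780 on the plus strand, held 15, Ilk, at chr7:105736340-105736639 on the plus strand, held 29, and Stim1, at chr7:102267569-102267868 on the plus strand, held 38. Not all promoters of other genes were so rich in CG. Of those not printed, Tpp1, next to Ilk, held 2, Hbb-bs 2, Pramel6 3, Nup160, in a border, 6 and Zfp202 17. Across the 3 clusters, the 432 receptor promoters in the RefSeq table had a median of 1 CG and none reached 10, whereas 13 of the 46 promoters of other protein-coding genes in the clusters and 53 of the 83 in the borders did. A CG was present in 64.4% of the receptor promoters and in 94.2% of all 27018 promoters, whose median was 7. The 512 receptor promoters elsewhere in the genome resembled those of the clusters, with a CG in 68.4%. The receptor promoters thus lacked the runs of CG that mark many other genes, in the late-replicating clusters as well as outside them.

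All 3 clusters replicated later than the genome and later than their borders in each of the 14 groups. In the zygote, the chromosome 2 cluster was replicated in 23.6% of cells (95% interval 14.5 to 36.4, n = 66), beside 65.6% for its borders and 54.3% for chromosomes 1 to 19. The chromosome 7 cluster was replicated in 24.7% of zygotes and the chromosome 9 cluster in 24.5%, with the same interval. The 3 clusters, on 3 chromosomes, thus stood within 1.14 percentage points of each other in all 66 zygotes, far less than the width of the interval. In the 53 zygotes that had passed the study's quality criteria they stood further apart. Their relative shares there were -41.7, -29.5 and -34.0 on chromosomes 2, 7 and 9. In the morula, the chromosome 2 cluster was replicated in 16.1% of cells (interval 7.65 to 30.8, n = 47) and its borders 68.1 percentage points more often, which was the widest step between a cluster and its borders in any group. The narrowest was in parthenotes on chromosome 9, where the share of the cluster minus that of its borders was -12.04 percentage points.

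**Figure D1:**
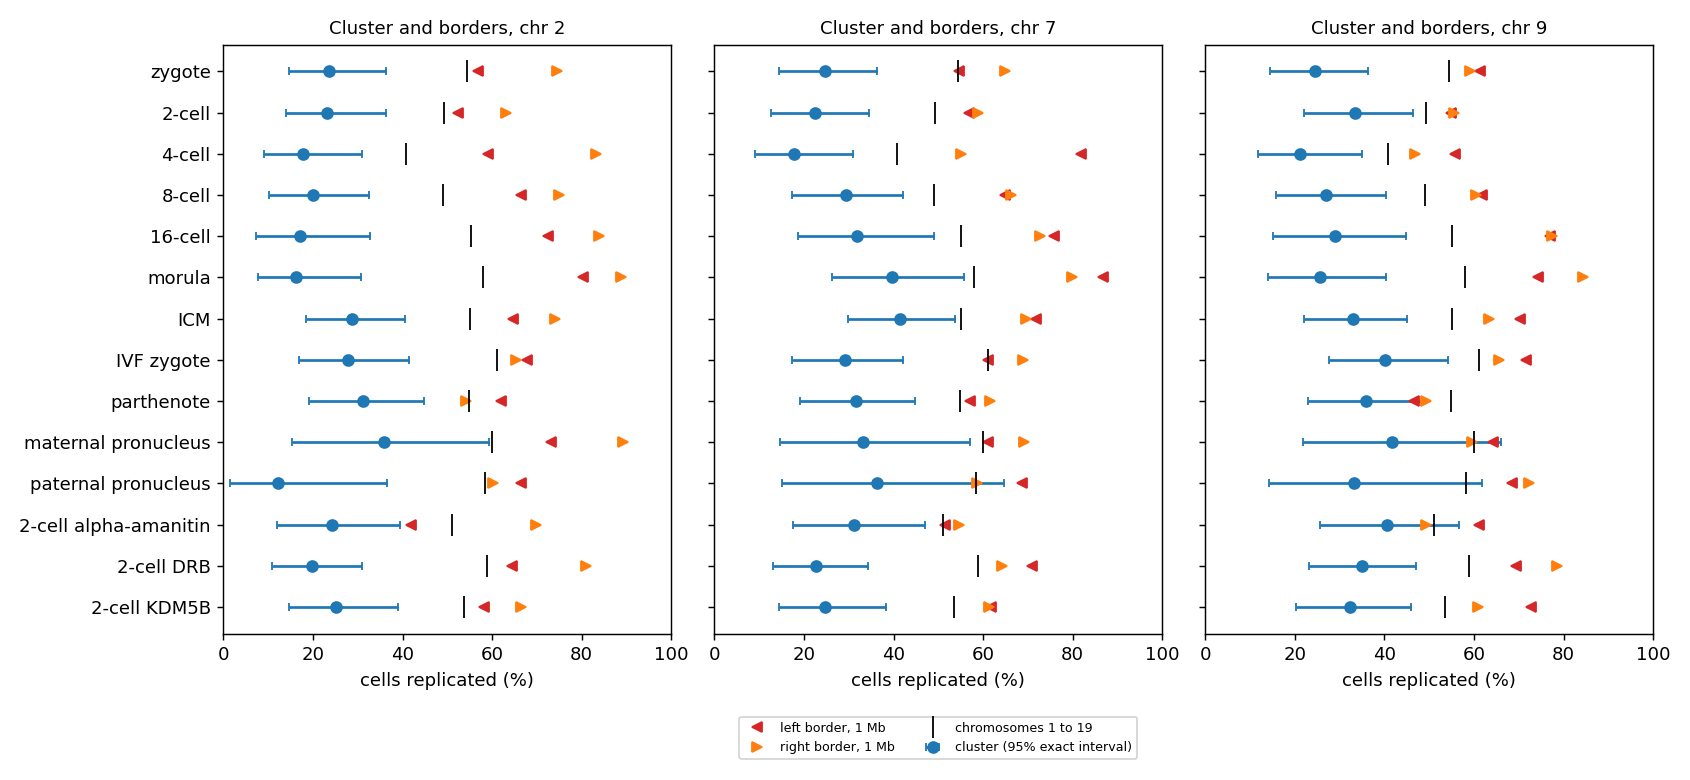
Share of cells with the cluster replicated (circles, exact 95% interval of the share rounded to whole cells), with its left and right 1 Mb borders (triangles) and with chromosomes 1 to 19 (bars) in each of the 14 groups, 1 panel per chromosome, in percent of cells. The circle lies left of the genome bar in every row, and the left border of chromosome 2 in alpha-amanitin, 9.20 percentage points below the genome, is one of 6 of the 84 borders on that side.

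Single cells showed the same order. On chromosome 2, the share of replicated bins was lower in the cluster than in its borders in 600 of 710 cells with calls there and higher in 50. The corresponding counts were 597 and 54 of 710 cells on chromosome 7, and 523 and 90 of 713 cells on chromosome 9. In morulae, 46 of 47 cells had the lower share in the chromosome 2 cluster, 47 of 47 in the chromosome 7 cluster and 43 of 47 in the chromosome 9 cluster, and in zygotes 55, 48 and 50 of 66 did. Among the 7 stages, cells with the reverse order were rarest in morulae, with 0, 0 and 1 cells. Among zygotes the share of the chromosome 2 cluster that was replicated ran from 0 to 100.0%, with a median of 11.2%, and among morulae from 0 to 79.1%, with a median of 14.3%.

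Bins at least 20 percentage points below the genome were common inside the clusters. In zygotes, 87 of 98 called bins of chromosome 2, 86 of 120 of chromosome 7 and 41 of 50 of chromosome 9 were that late, against 12.7% of all bins. The morula gave 75 of 91, 73 of 120 and 37 of 50, against 26.1% of all bins, and the 2-cell stage 81 of 98, 90 of 120 and 23 of 50, against 9.65%. The smallest share of a cluster was 17 of 50 bins, on chromosome 9 in embryos treated with alpha-amanitin, where 10.2% of all bins were that late. Each of these shares lay above that of the genome in the same cells. As the clusters had been chosen with the late replication of receptor genes known, these counts describe them and are no independent evidence that such clusters are late.

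The change from border to cluster was steep, and the middle of the chromosome 9 cluster was its latest part in zygotes and morulae. In zygotes, the relative share on chromosome 2 went from 13.9 in the outer 0.5 Mb of the borders to 8.71 next to the edge, -12.3 in the first 0.5 Mb inside and -33.6 in the next, and it stayed between -37.1 and -34.5 further in. In morulae the same steps gave 31.3, 20.2, -34.4 and -51.8, so that the drop across the edge was 54.7 percentage points, beside 20.98 in zygotes. Further in, morulae had -52.1, -39.3 and -27.6, the last in the middle of the cluster, which holds Pramel6 and Pramel7 and was thus earlier than the parts nearer to the edges. Chromosome 9 gave 4.54, -16.1, -38.6 and -39.6 from the edge to the centre in zygotes, and 20.9, -11.5, -43.6 and -51.6 in morulae. The profile of chromosome 7 was not a simple trough: the latest windows in morulae, at -51.2, and the earliest, at 30.96, both lay inside the range. Where the edges lie by position differs from where replication changes. The first 0.25 Mb of the chromosome 7 range, which holds Rrm1 and a part of Stim1, and the first 0.25 Mb of the chromosome 9 range were the earliest 0.25 Mb windows of their clusters in 11 and 14 of the 14 groups, respectively.

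**Figure D2:**
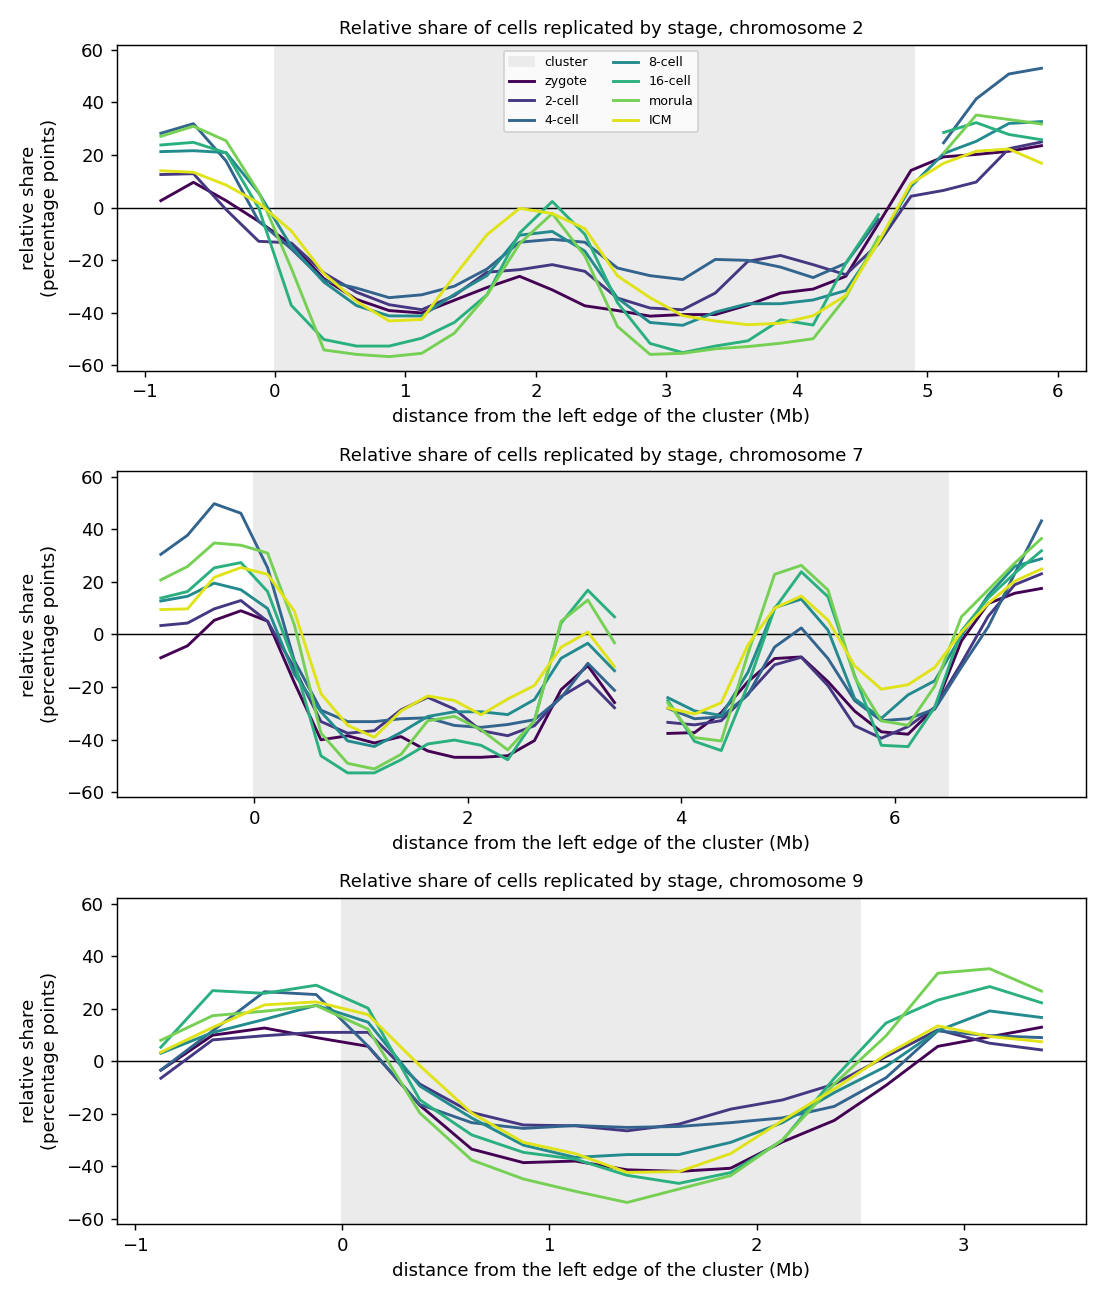
Relative share of cells replicated (share of the bin window minus the share over chromosomes 1 to 19, in percentage points) along each cluster (grey) and its 1 Mb borders, against the distance from the left edge of the cluster in Mb, 1 line per stage. Values are averaged over windows of 0.25 Mb; the chromosome 9 cluster forms a trough, the chromosome 2 cluster has a rise in its middle, to 2.32 in 16-cell embryos and -2.23 in morulae, and the chromosome 7 cluster is broken by 2 rises that reach above 0 at these stages.

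The receptor genes at the extremes show how wide the range within a cluster was. Olfr1066, the latest receptor of the chromosome 2 cluster over the 7 stages, had a relative share of -40.7 (zygote), -39.8 (2-cell), -33.5 (4-cell), -41.9 (8-cell), -52.7 (16-cell), -58.0 (morula) and -45.1 (ICM). In morulae none of the 47 cells had it replicated, which allows a share of up to 6.38% when 3 cells are taken as the limit of a count of 0, and none of the 17 paternal pronuclei had, which allows up to 17.6% in the same way. On chromosome 7 the latest receptor was Olfr605, from -33.5 in 4-cell embryos to -52.7 in 16-cell embryos, and on chromosome 9 it was Olfr944, from -24.4 in 4-cell embryos to -53.7 in morulae. All 3 were late at each stage and latest in 16-cell embryos or morulae.

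The earliest receptors lay near an edge or beside other genes. Olfr545 (S50), a class I receptor next to Rrm1, had a positive relative share at each of the 7 stages, between 4.64 in 2-cell embryos and 33.5 in morulae. Olfr151 (M71) and Olfr160 (M72), class II receptors much used in studies of odorant receptor choice, and Olfr874, another class II receptor, share the first bin of the chromosome 9 range and had a relative share of 7.80 (zygote), 15.8 (2-cell) and 29.4 (16-cell). Olfr1122, the earliest receptor of chromosome 2, lies 97.2 kb from Pramel7 and went from -25.5 in zygotes to 4.82 in 16-cell embryos. Other well-known receptors were intermediate. Olfr17 (P2) had -16.4 in zygotes and -0.53 in morulae, Olfr2 (I7) -18.7 and -9.04, Olfr78, a class I receptor also found outside the nose, -14.9 and 11.2, and Olfr1019 -28.6 and -55.9. Among the 516 protein-coding receptors of the 3 clusters, the median was -36.1 (zygote), -25.5 (2-cell), -42.4 (16-cell) and -25.1 (ICM), with single genes between -58.0 and 33.5 in morulae. Over all protein-coding genes the medians were 4.77, 3.06, 17.3 and 6.02.

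Class I and class II receptors of chromosome 7 had similar levels at most stages. The medians were -39.2 for the 127 class I and -30.8 for the 68 class II receptors among zygotes, -31.9 in both classes at the 2-cell stage, -42.7 and -34.6 among 16-cell embryos, and -23.0 and -18.0 in the ICM. The 2 classes stood furthest apart in paternal pronuclei, where class I receptors had -33.3 and class II receptors -14.6. The order was turned in embryos treated with alpha-amanitin, with -20.03 for class I and -28.96 for class II. Neighbouring receptors share bins and the smoothing of the states, so that the genes of a class are not independent measurements.

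Many genes outside the receptor family, in the gaps between receptors, were nearer to the genome in 16-cell embryos and morulae than in zygotes. The 66 such genes with calls in the 3 ranges had a median of -27.8 (zygote), -23.9 (2-cell), -12.9 (8-cell), -0.0486 (16-cell) and -5.32 (morula). They were split, since 31 of the 66 in 16-cell embryos and 30 in morulae were still at least 20 percentage points below the genome, beside 41 in zygotes. In the chromosome 7 range, 3 gaps of at least 300 kb hold no receptor gene. The first, with Trim genes, several of them known from innate immunity, was late at each stage, between -46.7 in zygotes and -28.5 in the ICM. The second holds the genes from Cckbr, the receptor of cholecystokinin and gastrin, to Dchs1, a large cadherin, with Smpd1 and Tpp1, which encode lysosomal enzymes, and Ilk between them. The third holds the genes from Nlrp14, a gene of oocytes and early embryos, through Syt9, a synaptotagmin of vesicle release, to Ovch2. On chromosome 2, Pramel6 and Pramel7, genes of the PRAME family expressed in early embryos, lie between receptors. The last 2 gene groups were picked after their values had been seen, as was the split of the second gap at Cckbr and Dchs1, and they describe these cells only.

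The Cckbr to Dchs1 genes (chr7:105425731-105787654, 8 bins, GC 45.7%) were later than the genome up to the 8-cell stage, earlier in 16-cell embryos and morulae, and close to it in the ICM. Their relative share was -16.1 in zygotes and -20.95 in 2-cell embryos, then -14.2 and -6.43 at the 4-cell and 8-cell stages, and reached 14.8 at the 16-cell stage, followed by 8.78 in morulae and -2.27 in the ICM. The difference between 16-cell and 2-cell embryos was 35.8 percentage points (95% interval 14.8 to 52.8) and that between morulae and 2-cell embryos 29.7 (9.08 to 45.9). The whole gap without receptor genes stayed later than the genome, at -7.84 in 16-cell embryos and -11.3 in morulae. Its differences from 2-cell embryos were 19.2 (-0.788 to 38.3) and 15.7 (-3.27 to 33.7), and both intervals run from negative to positive values. Cckbr itself went from -16.0 in 2-cell embryos to 16.1 in 16-cell embryos, and Ilk from -25.5 to 12.3. Tpp1 gave -27.9 and 9.82, and Dchs1, at the far end, -30.3 and 7.32. All 4 were thus on opposite sides of the genome average at the 2 stages, with Cckbr earlier than the other 3 at both.

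The Nlrp14 to Ovch2 genes (chr7:107166990-107801208, 14 bins, GC 42.4%) also went from later to earlier than the genome, and had positive values from the 8-cell stage to the ICM. They gave -11.1 at the zygote stage and -12.1 at the 2-cell stage, then -2.62, 9.99 and 16.8 from the 4-cell to the 16-cell stage, 23.3 in morulae and 10.9 in the ICM. Morulae exceeded 2-cell embryos by 35.5 percentage points (interval 16.3 to 51.2). Syt9, in the middle, went from -8.05 in 2-cell embryos to 27.1 in morulae, Nlrp14 from -16.0 to 16.5 and Ovch2 from -19.96 to 18.6. On chromosome 2 the 2 bins of Pramel6 and Pramel7 (chr2:87489087-87510872) gave -29.3 (zygote), -20.8 (2-cell), -12.6 (4-cell), -8.89 (8-cell), 3.57 (16-cell), -2.66 (morula) and -2.27 (ICM). The difference between 16-cell and 2-cell embryos was 24.3 percentage points there (interval 4.30 to 43.9). The counting intervals of these differences do not cover the choice of the genes or their limits after their values had been seen. Without the 9 cells of 77 h, 16-cell embryos had 20.7, 20.3 and -5.09 in the 3 intervals, so that the sign turned for Pramel6 and Pramel7.

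The bins with receptor genes gave other values. Between 2-cell embryos and morulae they changed by -15.9 percentage points on chromosome 2 (interval -30.8 to 0.373), by 4.66 on chromosome 7 (-13.1 to 22.5) and by -16.6 on chromosome 9 (-33.9 to 2.17), and each of these intervals includes 0. The beta-globin genes, which lie among class I receptors and are read out in red cells, changed by -17.0 (-32.7 to 0.0789) from 2-cell embryos to morulae, from -23.9 to -41.0, and went to -43.9 in 16-cell embryos (interval of the difference from 2-cell embryos -35.1 to -3.98). Hbb-bt and Hbb-bs, the adult genes, had -23.9 in 2-cell embryos and -45.2 in morulae, and Hbb-y, an embryonic one, -23.9 and -36.7. All these intervals, of 2 bins for the globin and Pramel genes, 8 for Cckbr to Dchs1 and 14 for Nlrp14 to Ovch2, are shorter than the running median of 15 bins that smoothed the states, so their values carry those of their neighbours.

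**Figure D3:**
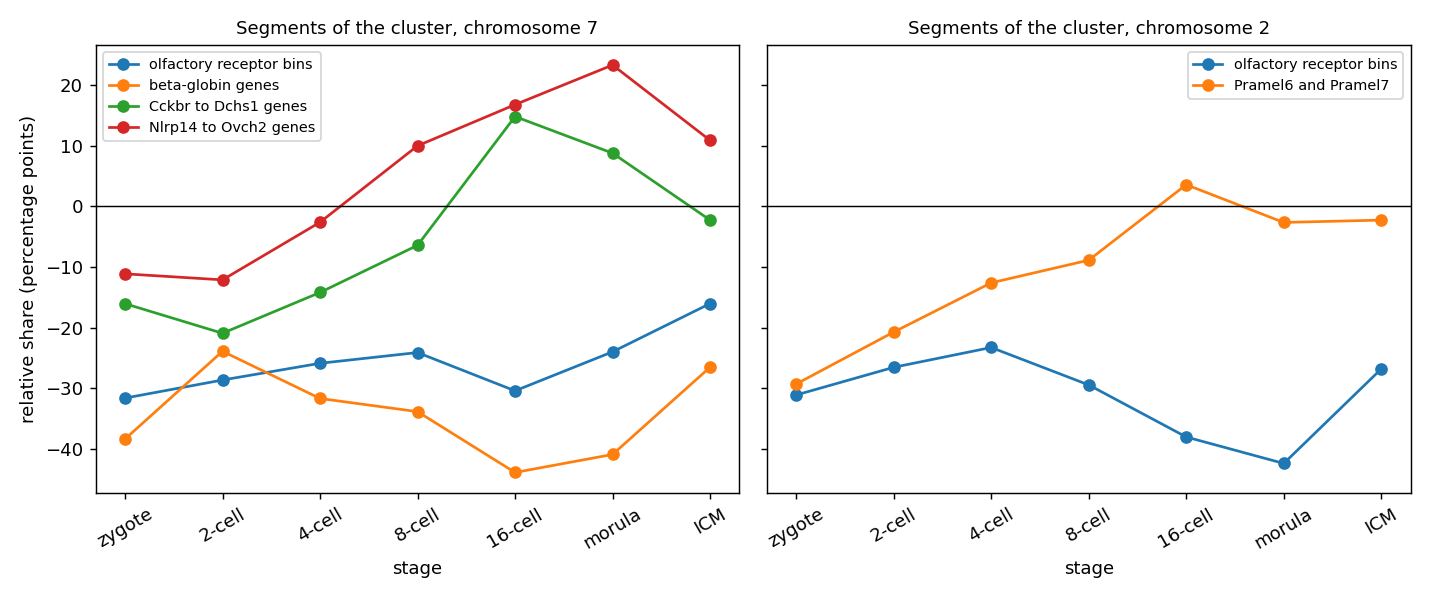
Relative share (percentage points) by stage for the bins with receptor genes, the beta-globin genes and the 2 intervals with other genes on chromosome 7 (left), and for the receptor bins and Pramel6 and Pramel7 on chromosome 2 (right). The intervals with other genes rise from below 0 in 2-cell embryos to above 0 in 16-cell embryos, while the receptor bins and the globin genes stay below 0 throughout.

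In single cells these intervals were mostly replicated ahead of the receptors around them. The Nlrp14 to Ovch2 genes, the Pramel genes and the limits of the Cckbr to Dchs1 interval had been picked from the values of these same cells. The counts therefore describe the intervals and are no independent evidence that they are early. An interval was taken as replicated in a cell when over 50% of its bins were, and was set beside the receptor bins 0.5 to 1 Mb away on either side. In morulae, 26 of 47 cells had the Cckbr to Dchs1 genes replicated and the receptors not, 6 had both, 15 neither, and no cell had the receptors alone. The counts for the Nlrp14 to Ovch2 genes were 28, 11, 8 and 0, and those for Pramel6 and Pramel7 were 26, 0, 21 and 0. In 2-cell embryos, 10, 17 and 13 of 63 cells had the interval alone and 1, 2 and 0 the receptors alone. When only one of both was replicated in a cell it was mostly the interval, already in the 2-cell stage, and the cells with the interval alone made up the largest class in 16-cell embryos, with 24, 25 and 21 of 40 cells.

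Progress through S phase was the second axis along which the clusters varied. With a cluster called replicated in a cell when over 50% of its bins were, the chromosome 2 cluster was replicated in 4.20% of 119 cells of the 7 stages with scores of 10 to 40 (95% interval 1.38 to 9.53), in 11.1% of 144 cells with 40 to 60 (6.49 to 17.4) and in 20.1% of 134 cells with 60 to 90 (13.7 to 27.9). On chromosome 7 the corresponding shares were 5.88% (2.40 to 11.7), 5.56% (2.43 to 10.7) and 48.5% (39.8 to 57.3), and on chromosome 9, where 133 cells had a score of 60 or above, they were 8.40% (4.10 to 14.9), 19.4% (13.3 to 26.9) and 31.6% (23.8 to 40.2). In the last part of S phase that was sampled, each of the clusters was thus replicated by this rule in under 50% of the pooled cells, although the interval on chromosome 7 reached above it and the stages differed. With scores of 60 to 90, the chromosome 7 cluster was replicated in 19 of 27 ICM cells (70.4%, interval 49.8 to 86.2), 10 of 16 cells of the 8-cell stage (62.5%) and 16 of 26 morula cells (61.5%), but in 7 of 26 zygotes (26.9%) and 5 of 17 cells of the 16-cell stage (29.4%). On chromosome 9 it was replicated in 9 of 14 cells of the 2-cell stage (64.3%). The chromosome 7 cluster changed most between the middle and the late cells, and the interval of the late cells lay above those of the other 2 scores. Cells with no replicated bin at all in a cluster became rarer with the score: 52, 31 and 5 cells on chromosome 2 and 33, 14 and 2 on chromosome 7. On chromosome 9 there were 61, 23 and 7 such cells.

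**Figure D4:**
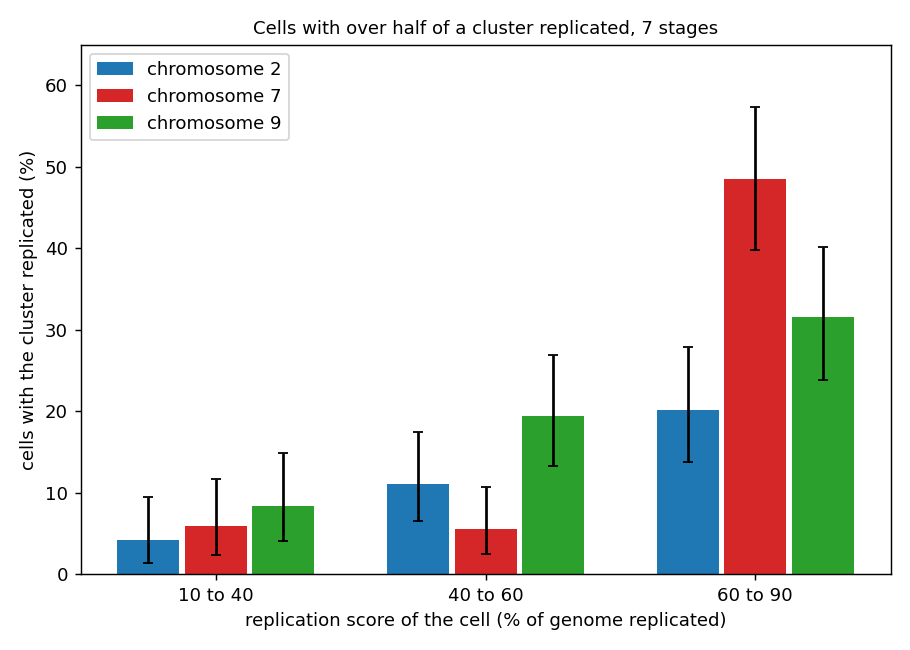
Percentage of cells of the 7 stages with over 50% of a cluster's called bins replicated, by the replication score of the cell (percentage of the genome replicated), for the clusters of chromosomes 2, 7 and 9, with exact 95% intervals. Over the pooled stages the shares of all 3 clusters stay under 50% in cells with scores of 60 to 90, while single stages reached 70.4% on chromosome 7 and 64.3% on chromosome 9.

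The order was loose enough for exceptions in both directions. A zygote with a score of 70.8 had no bin of the chromosome 2 cluster replicated and one with 38.9 had all of them. These were taken from all 66 zygotes, of which 53 had passed the study's quality criteria. Over 50% of that cluster was replicated in 16.7% of all zygotes and in 7.55% of those that had passed. Among 16-cell embryos and morulae no cell had the whole of the chromosome 2 or the chromosome 7 cluster replicated, and the fullest morula had 79.1% of the chromosome 2 cluster. Most cells were mixed, with some bins of a cluster replicated and others not: 49 of 66 zygotes on chromosome 2, 50 on chromosome 7 and 42 on chromosome 9, and 37, 46 and 40 of 47 morulae. The 3 clusters of 1 cell did not go as a unit. Of 47 morulae, 27 had none of the clusters replicated by the 50% rule, 13 had 1, 6 had 2 and 1 had all 3, and of 66 zygotes 43, 16, 5 and 2 did. Between the cells of a stage, the relative shares of the chromosome 2 and 9 clusters correlated with r between 0.165 in the ICM (70 cells) and 0.647 in 8-cell embryos (56 cells), as a description of cells that share library depth and score. The other pairs were less correlated at most stages, with r between 0.0877 and 0.419 for chromosomes 2 and 7 and between 0.0165 and 0.201 for chromosomes 7 and 9.

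Between neighbouring stages no cluster changed by 20 percentage points, the size taken as a difference here. Relative shares over the 7 stages ran from -41.8 in morulae to -23.1 in 4-cell embryos on chromosome 2, from -29.6 in zygotes to -13.8 in the ICM on chromosome 7, and from -32.4 in morulae to -15.8 in 2-cell embryos on chromosome 9. On chromosome 2 the order from latest to earliest was morula (-41.8), 16-cell (-38.0), zygote (-30.7), 8-cell (-29.2), ICM (-26.5), 2-cell (-26.3) and 4-cell (-23.1), and neighbours in this order differed by at most 7.29 percentage points, which is within the counting intervals. The clusters of chromosomes 2 and 9 were latest in morulae, and that of chromosome 7, with the early intervals in it, was nearly the earliest there (-18.3).

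Setting morulae against 2-cell embryos, the chromosome 2 cluster was lower by 15.6 percentage points (interval of the difference -31.2 to 1.67), with 32 of 91 bins later by at least 20 points, against 23.1% of all bins. The chromosome 9 cluster fell by 16.6 (-33.9 to 2.17), with 25 of 50 bins later. The chromosome 7 cluster went the other way, by 8.45 (-9.39 to 27.3), with 39 of 120 bins earlier, against 19.7% of all bins. The shares themselves differed by -6.93 on chromosome 2, -7.91 on chromosome 9 and 17.1 on chromosome 7. Meanwhile the relative shares of the borders of all 3 rose, by 17.5, 16.8 and 15.4 percentage points, so that the clusters stood out more from them in morulae. From morula to ICM the chromosome 2 cluster gained 15.4 (-2.52 to 30.05), with 26 of 91 bins earlier against 13.4% of all bins, and with ICM cells of 96 to 100 h alone it gained 10.7. From zygote to 2-cell embryo the only change over 10 points was on chromosome 9, with 14.01 (-2.55 to 30.3) and 5 of 50 bins earlier against 2.33% of all bins. The intervals of all these differences include 0.

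Collection hours within a stage differed as much as stages did. In hours with at least 5 cells, zygotes ranged from -56.3 to -11.6 on chromosome 2, and 2-cell embryos from -38.7 to -12.6. The 11 8-cell embryo cells of 72 h and the 9 16-cell embryo cells of 77 h stood apart: on chromosome 2 they had -9.18 and -7.56, on chromosome 9 -5.12 and -3.22. Without them the relative shares became -34.0 and -46.9 on chromosome 2, -19.5 and -24.8 on chromosome 7, and -26.3 and -33.1 on chromosome 9. The 16-cell embryos then had the lowest relative share of the 7 stages on chromosomes 2 and 9. Whether these cells differ by collection, by score (the 9 cells had a genome share of 33.4%, the others 61.5%) or by both was not tested. In zygotes the 53 cells that had passed the study's quality criteria gave -41.7 on chromosome 2, beside -30.7 for all 66.

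**Figure D5:**
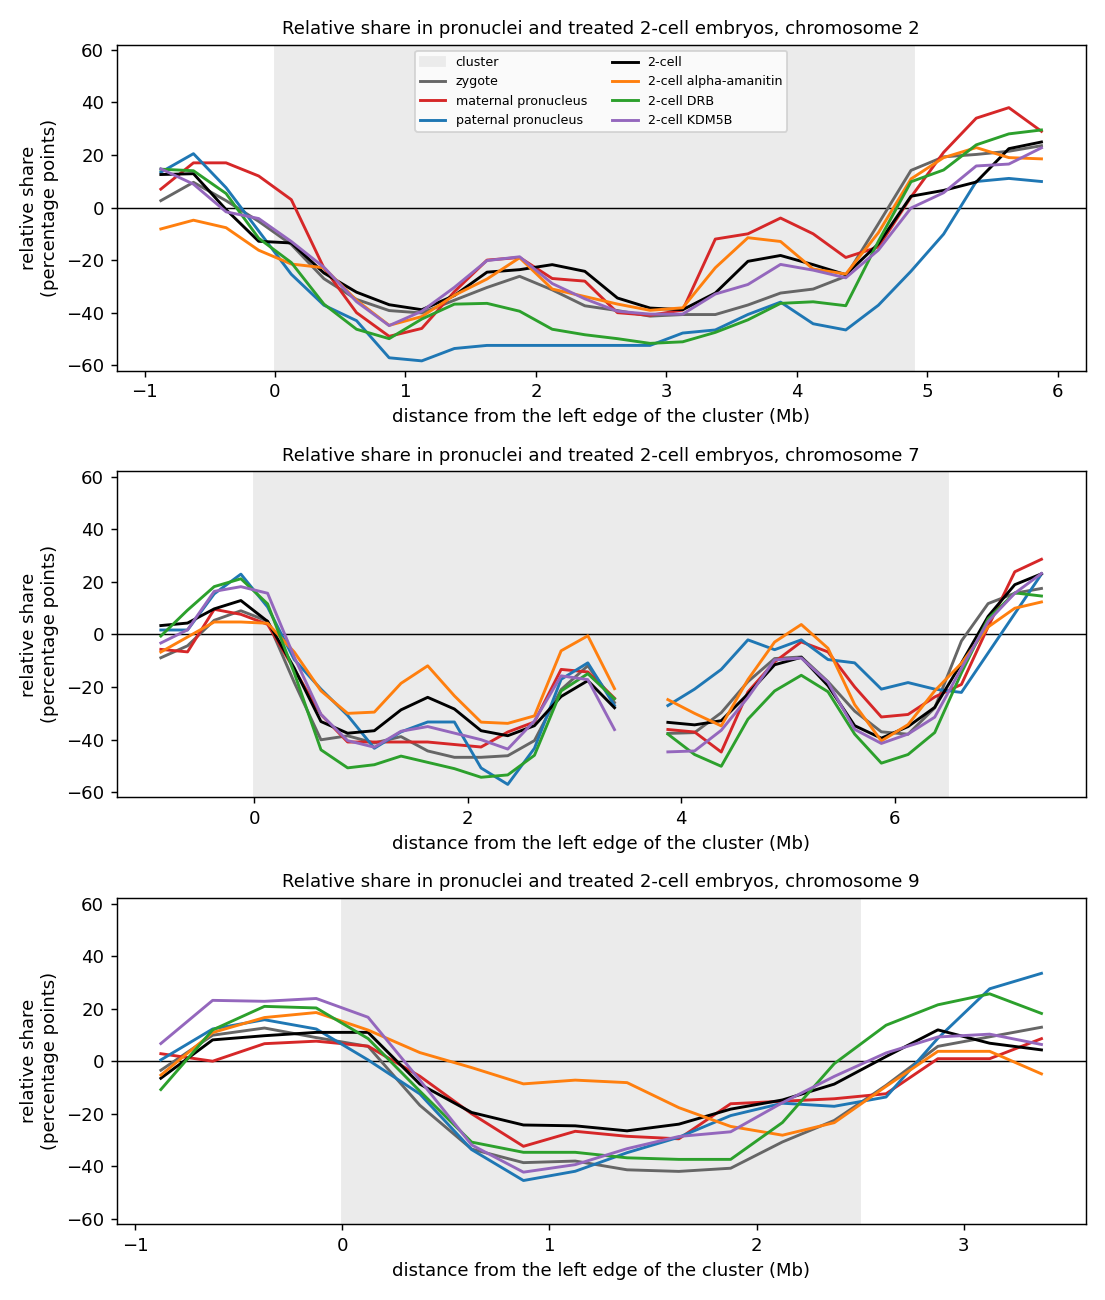
Relative share (percentage points) along each cluster (grey) and its 1 Mb borders against the distance from the left edge of the cluster in Mb, for zygotes, maternal and paternal pronuclei, 2-cell embryos and the 3 treated 2-cell groups. On chromosome 2 the line of the paternal pronuclei lies below that of the maternal ones across the whole cluster, and the line of DRB below that of 2-cell embryos over most of it.

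Maternal and paternal pronuclei differed most on chromosome 2. The cluster was replicated in 35.97% of maternal pronuclei (interval 15.4 to 59.2, 20 pronuclei with calls) and in 12.2% of paternal ones (1.46 to 36.4, n = 17), and the relative shares were -24.0 and -46.1. Single maternal pronuclei had between 0 and 100.0% of the cluster replicated, with a median of 30.6%, and single paternal ones between 0 and 76.5%, with a median of 3.06%, so that the groups overlapped. The difference of 22.1 percentage points was the only one of 20 or more among the comparisons made of whole clusters, and its interval, -8.00 to 49.9, includes 0. It was 18.0 with the maternal pronuclei that passed the study's criteria, which takes it under 20, and 26.6 in cells with scores of 20 to 80. Of the 98 bins, 54 were earlier in maternal pronuclei by at least 20 points and none later, against 8.9% of all bins earlier and 7.91% later. Every 0.5 Mb window went that way, by 5.60 to 32.95 percentage points, with the largest difference 1.5 to 2 Mb from the left edge. All 98 bins of the paternal pronuclei were at least 20 points below the genome, where 13.8% of all bins were, and 51 of the maternal ones, where 11.2% were. The right border differed as well, by 27.3 points, and the left one by 5.12.

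The other clusters did not show that difference. On chromosome 7 maternal pronuclei were at -26.8 and paternal ones at -22.0, with a difference of -4.75 (-36.2 to 27.7), and on chromosome 9 they were at -18.3 and -25.02, with 6.76 (-27.9 to 37.6). With at most 21 and 17 pronuclei, a difference of 20 points would not have been detectable on any of the 3 chromosomes at this depth. The whole zygotes lay between both pronuclei on chromosome 2, at -30.7, but were lower than both on chromosomes 7 and 9. Relative to zygotes, paternal pronuclei fell by 15.4 on chromosome 2 (-32.1 to 10.51; 26 of 98 bins later, against 6.26% of all bins) and maternal ones gained 6.74 (-15.2 to 33.9; 21 of 98 bins earlier, against 6.23%). The first of these was -20.9 in cells with scores of 20 to 80 and -4.45 against the zygotes that passed the study's criteria.

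The clusters were late in parthenotes and IVF zygotes too. IVF zygotes had -33.2, -31.8 and -20.99 on chromosomes 2, 7 and 9, within 8.82 percentage points of natural zygotes, and parthenotes -23.7, -23.4 and -19.1. Parthenotes exceeded zygotes by 7.02 (-10.04 to 23.7), 6.25 (-10.2 to 23.3) and 10.7 (-6.81 to 27.1), and 10 of 50 bins of chromosome 9 were earlier by at least 20 points, against 5.86% of all bins. With the cells that had passed, parthenotes exceeded zygotes by 16.0, 1.91 and 16.2. Their borders on chromosome 9 were later than the genome on both sides, at -8.35 and -5.72 percentage points, which made the step at the cluster the smallest of the 14 groups there. The relative share of the Cckbr to Dchs1 genes was -37.0 in IVF zygotes, -16.1 in natural zygotes and -12.9 in parthenotes, so that the IVF zygotes had these genes as late as receptors.

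With DRB the relative share of all 3 clusters was lower than in untreated 2-cell embryos, by under 20 points in each. The clusters of 2-cell embryos with DRB had -38.9, -36.1 and -23.8, with differences of -12.7 (-28.7 to 1.59), -9.36 (-24.6 to 5.80) and -8.03 (-25.5 to 8.60) percentage points. Later by at least 20 points were 14 of 98 bins on chromosome 2, 12 of 120 on chromosome 7 and 2 of 50 on chromosome 9, against 2.21% of all bins. The cells with DRB had a higher genome share, 58.8% against 49.3%, while the shares of the clusters themselves differed by -3.19, 0.134 and 1.46. The higher share of the genome was thus not matched in the clusters. At collection hours that both groups had, the differences were -8.76, -7.10 and -6.59. Pramel6 and Pramel7 were at -44.6 with DRB and at -20.8 without, and Cckbr at -14.04 and -15.99. The largest window differences were -24.4 on chromosome 2, 2 to 2.5 Mb from its left edge, and -23.7 on chromosome 7, 1.5 to 2 Mb from its left edge.

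With alpha-amanitin no cluster was lower than in untreated 2-cell embryos by 1 point or more. On chromosome 2 the cluster was at -26.7 and at -26.3 without it, with a difference of -0.427 (-18.4 to 17.2), on chromosome 7 at -19.7, with 7.07 (-11.1 to 25.7), and on chromosome 9 at -10.51, with 5.29 (-14.3 to 25.2). No bin of chromosome 2 differed by 20 points in either direction, and 1 of 120 and 2 of 50 bins of the other clusters were earlier by that much, against 3.41% of all bins earlier and 3.4% later. Within the chromosome 9 cluster the change was uneven: the windows from 0.5 to 1.5 Mb gained 16.4 and 17.9 percentage points, and the last one changed by -14.04. The beta-globin genes were at -12.9 with alpha-amanitin and at -23.9 without. The 2 inhibitors were not compared with each other by a test; as both share the untreated 2-cell embryos, only their own values are given.

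With Kdm5b mRNA the clusters differed little from those of untreated 2-cell embryos. The relative shares were -28.5, -28.8 and -21.4, with differences of -2.29 (-19.2 to 13.8), -2.05 (-17.9 to 14.7) and -5.60 (-23.1 to 12.4), and no bin of the 3 clusters differed by 20 points, where 1.15% of all bins were earlier and 1.24% later by that much. These intervals leave room for differences of up to 23.1 points. At the hours that both groups had, the difference on chromosome 2 was 11.6, so that its direction turned, and on chromosomes 7 and 9 it was -0.145 and 5.55.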

How the data were processed

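Single mouse cells or nuclei were sequenced to read the copy number of their DNA, and 1016 samples were labelled, each of 1 cell. Files of states covered 733 cells; 283 labelled samples had no column there and were not analysed here, and 19 cells with a replication score outside 10 to 90 were left out. The authors had counted reads with a mapping quality of at least 20 in 50 kb bins (mm10; Bowtie2 2.3.5, SAMtools 1.9 and bedtools 2.29.0 in the submitters' processing notes), scaled them to the library total, divided each bin by its mean over the stage, masked the lowest 5% and highest 1% of windows, applied a running median over 15 bins before segmentation, and deposited 1 of 2 states per bin and cell. Copy number that is the same in every cell of a stage is therefore removed, and neighbouring bins are not independent. Depth was listed for 495 cells of 10 groups, with 105627 to 11019500 deposited reads per cell as counts, and 440 had passed the study's minimum of 750000 reads and its limit on unevenness.

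Shares of replicated cells per bin were averaged over the bins of a region with Python 3.11.15, NumPy 2.4.6, pandas 2.3.3 and SciPy 1.17.1, and drawn with Matplotlib 3.10.9. Genes came from GENCODE M21, promoters from RefSeq (GRCm38.p6). No column was a duplicate of another. No test between groups was made, as each group is 1 sample. Differences of 20 percentage points or more were counted as such, and the share of all bins past that size is given beside the counts. The calculations were tested on simulated cells with known shares. Named genes were the latest and the earliest receptor of each cluster over the 7 stages, well-known receptors, and listed neighbours; exceptions are stated where they occur. The clusters, gene lists and alternatives were chosen with earlier results of these data known, and the alternatives for intervals inside the clusters after their values had been seen. Alternatives were other sets of cells, score limits, hours, bins, border widths and block thresholds, and averages over 16 intervals of score.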

Additional observations from a re-analysis of the deposited data

How the results depend on the processing

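The lateness of the 3 clusters against the genome and against their borders had the same direction under every alternative run. Of 408 alternative values of the relative share, 3 moved beyond their counting interval, of 678 alternative differences between groups 4 did, and of 156 values against the borders 4 did. The direction turned in 23 of the alternative differences, which belonged to 11 of the comparisons, all of them with a main difference of under 10 percentage points. The 20-point size was crossed by the pronuclei on chromosome 2, with 18.0 when only maternal pronuclei that passed the study's criteria were kept. No depth was listed for paternal pronuclei, so all 17 of them stayed in. It was also crossed by paternal pronuclei against zygotes there, with -20.9 at scores of 20 to 80, and by 16-cell embryos without the cells of 80 h. In zygotes that had passed the study's criteria, the relative share on chromosome 2 was -41.7, that of its receptor bins -42.1, and 7.55% of cells had over 50% of the cluster replicated. Leaving out 1 collection hour at a time moved 16-cell embryos, which were collected at 77 and 80 h only, between -46.9 and -7.56 on chromosome 2 and between -33.1 and -3.22 on chromosome 9. The difference from 8-cell to 16-cell embryos ranged from -17.8 to 21.6 and from -10.9 to 18.95, and that from 16-cell embryos to morulae from -34.3 to 5.09 and from -29.1 to 0.717. With borders of 2 Mb, the chromosome 9 cluster minus its borders was -30.3 in 16-cell embryos, -35.95 in morulae, -24.3 with DRB and -18.3 with Kdm5b mRNA. Averaging over intervals of score put the Trim genes of 4-cell embryos at -40.2, and scores of 20 to 80 put Pramel6 and Pramel7 of paternal pronuclei at -59.4. The cause of these shifts was not tested.

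The percentage of cells with a cluster replicated as a block fell with the threshold, as a higher threshold must make it do. With at least 75% of bins replicated in place of over 50%, the chromosome 2 cluster was replicated in 0% of 16-cell embryos, 5.71% of ICM cells, 7.02% of IVF zygotes, 14.5% of parthenotes and 5.97% of cells with DRB. On chromosome 7 the values were 6.06% (zygote), 4.76% (2-cell), 1.82% (4-cell), 10.7% (8-cell), 2.5% (16-cell), 4.26% (morula), 21.4% (ICM), 8.93% (IVF zygote), 9.09% (parthenote), 12.5% (paternal pronucleus), 2.99% (DRB) and 0% (Kdm5b mRNA). On chromosome 9 they were 9.09% (zygote), 5.13% (16-cell), 2.13% (morula), 5.71% (ICM), 15.8% (IVF zygote), 15.8% (parthenote), 26.2% (alpha-amanitin), 8.96% (DRB) and 8.93% (Kdm5b mRNA).

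With the pronucleus number as a replicate block, maternal minus paternal was 22.7 percentage points on chromosome 2 (maternal earlier in 7 of 9 pairs), -5.87 on chromosome 7 and -9.68 on chromosome 9, where the direction turned from the 6.76 of the pooled groups. Same-numbered pronuclei did not deviate together over all bins, with r from -0.0344 to 0.0837 over 10 pairs. The study collected both pronuclei of a zygote, but no label states which ones belong together. As separate nuclei need not deviate together, these values cannot decide whether the numbers mark a shared zygote. No paired analysis was possible for the other comparisons because their numbers only name cells. With 17 to 70 cells in a group, differences between groups of under about 20 percentage points lie within the counting intervals.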

Other observations

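Receptor genes outside the 3 clusters were late as well, though less far from the genome. The 612 other protein-coding olfactory receptors had a median relative share of -27.1 at the zygote stage, -23.9 in 2-cell embryos, -13.3 in morulae and -10.8 in the ICM. Vomeronasal receptors, which detect pheromones, form clusters of their own, and the 206 to 239 of 327 with values in a group had medians of -34.6, -30.3, -18.6 and -17.98 at these stages. Genes at least 20 percentage points below the genome made up 63.01% of the other olfactory receptors, 87.3% of the vomeronasal receptors and 86.4% of the receptors in the 3 clusters in zygotes, beside 12.5% of all protein-coding genes. In morulae the percentages were 36.7, 45.9, 78.9 and 8.38. The receptors of the 3 clusters were thus late in both stages. The median of both other receptor lists was nearer to the genome in morulae than in zygotes. That of the chromosome 7 receptors was so too, with -37.7 in zygotes and -32.4 in morulae. On chromosomes 2 and 9 the receptors had lower medians in morulae, -51.6 and -43.1, than in zygotes, -34.6 and -36.1. With DRB the medians were -33.4 for the other olfactory receptors and -43.9 for vomeronasal receptors, lower than the -23.9 and -30.3 of untreated 2-cell embryos, and no test of these differences could be made.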
